A study of Oryctolagus cuniculus with 30 samples.

Results

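The right vocal fold was set against the left vocal fold of the same rabbit. Of the 30 libraries in the series, 28 entered this comparison, 14 from right folds and 14 from left folds of 14 animals, with the side read from the letter that follows the animal number in the sample name. The 15th animal, an injury_only rabbit, was left out because its folds were in different library batches. RNA was sequenced from the mucosa of each fold of Oryctolagus cuniculus, and the 5 treatments were VFLP_man (VFLP (man), 3 animals), VFLP_au (VFLP (au), 3 animals), Col1 (3 animals), injury_only (2 of its 3 animals paired here) and control (3 uninjured animals). In all animals but the controls both folds were injured by stripping the superficial mucosa, and VFLP_man, VFLP_au and Col1 animals received 20 µL of material in both folds 7 days after injury, with tissue taken 28 days after treatment. Both folds of an animal therefore had the same treatment, and neither side is an untreated reference for the other within an injured animal.

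A vocal fold is a layered tissue. A stratified squamous epithelium renewed from basal cells covers a lamina propria of fibroblasts, elastic fibres, hyaluronan and vessels, with gland ducts and ciliated airway epithelium at its borders and the skeletal thyroarytenoid muscle beneath. The left and right folds are mirror images of each other. Markers of these layers were present in every library. The basal keratin KRT5 ranged from 125 to 2270 CPM (the read count of a gene put on a common scale of library size), the squamous keratin KRT13 from 703 to 15700 CPM, the fibroblast proteoglycan DCN from 62 to 2110 CPM and the muscle actin ACTA1 from 13 to 11600 CPM. The widest of these ranges was that of the muscle gene, which is not a gene of mucosa.

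Libraries of right folds held 14.2 to 31.9 M gene reads and those of left folds 18.1 to 29.2 M. Gene reads and 6 other library measures (unmapped, multimapping, featureless and ambiguous reads, genes with at least 10 reads, and the share of the top 10 genes) gave adjusted p values of 0.658 to 0.952 between sides in an exact sign-flip permutation test over 14 animals. Multimapping reads had a median of 16.5% in right folds and 14.9% in left folds, and were higher in the right fold of 10 animals (mean difference 1.67 points ± 3.98 SD, n = 14). In control animals 80, 84 and 85 they were 22.38%, 34.54% and 26.47% on the right, against 14.51%, 30.34% and 19.82% on the left. The top 10 share was 17.99%, 32.24% and 25.61%, against 12.58%, 27.37% and 14.92%. Fewer genes had at least 10 reads in each right fold (14832, 13198 and 14685, against 15223, 14389 and 14896). The other measures had mixed signs in these animals. The part of library measures in the control calls below was not tested. The shallowest library was the right fold of control animal 84, at 14.2 M gene reads with 34.5% of reads multimapping, and the gene list counts in control are given below without each control animal.

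Over all 14 animals no gene passed the test between right and left. In edgeR's quasi-likelihood test with animal as a block, 0 of 15301 genes (0%) had an adjusted p under 0.05, and the smallest adjusted p was 0.56. At an unadjusted p under 0.05 there were 541 genes higher in the right fold (3.54%) and 775 lower (5.07%). DESeq2 in the same design called 14 genes (5 higher, 9 lower), and limma voom called 0.

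Of the 10 genes of smallest p in each direction, none passed after adjustment, and their values are given as levels. With 15301 genes tested, a gene can have the same sign in all 14 animals by chance alone, so counts of such genes are descriptions. HEATR3, which takes part in importing a ribosomal protein complex into the nucleus, was the single gene of 15301 (0.00654%) higher in the right fold of all 14 animals. Its level ranged from 37.7 to 73.8 CPM in right folds (median 47.9), against 31.7 to 61.4 CPM in left folds (median 44.5). The difference was small in each animal, at most 0.45 log2 units, and the sides overlapped widely between animals. IDE, the insulin-degrading metalloprotease, ranged from 60.4 to 179 CPM in right folds (median 87.4) and from 51.8 to 135 CPM in left folds (median 79.7), and was higher on the right in 13 of 14 animals (log2 fold change 0.25, SE 0.06, unadjusted p = 0.000394, adjusted p = 0.56 by edgeR). SIX2, a homeobox factor of craniofacial and kidney development, had medians of 13.9 CPM in right folds and 9.21 CPM in left folds (log2 fold change 0.52, SE 0.13) and was higher on the right in 13 of 14 animals. The other genes on this side of the ranking were C1H9orf40, FAM98A, the sodium/proton exchanger SLC9B2, the helicase DHX29, the mitochondrial glutaredoxin GLRX2, GATC of the mitochondrial glutamyl-tRNA amidotransferase, and CMC1, a cytochrome c oxidase assembly factor. Their log2 fold changes ran from 0.19 (CMC1) to 0.38 (C1H9orf40), each higher on the right in 11 to 13 animals.

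Genes lower in the right fold showed larger steps. There were 5 genes of 15301 (0.0327%) lower in the right fold of all 14 animals: CDK14, CHRNA6, SFTPB, B4GALT3 and 1 gene with a LOC number. B4GALT3, a galactosyltransferase, is named because it was in this count, after its values were seen. CHRNA6, a nicotinic acetylcholine receptor subunit, ranged from 1.38 to 27.1 CPM in right folds (median 14.6) and from 9.85 to 29.4 CPM in left folds (median 20.2), with a log2 fold change of -0.82 (SE 0.21). Its largest gaps were in control animals, at 10.9, 1.38 and 1.94 CPM in their right folds, against 29.4, 10.8 and 10.2 CPM in their left folds. CDK14, a kinase that acts in Wnt signalling, had medians of 46.0 CPM in right folds and 64.4 CPM in left folds (log2 fold change -0.30, SE 0.07). SFTPB, a lung surfactant protein, was low throughout, from 0 to 5.04 CPM in right folds and from 0.242 to 10.4 CPM in left folds. The gene of smallest p was TRIL, a Toll-like receptor accessory protein, with medians of 16.5 CPM in right folds and 21.5 CPM in left folds, lower on the right in 12 of 14 animals (log2 fold change -0.55, SE 0.12, unadjusted p = 0.000274, adjusted p = 0.56 by edgeR). The rest were TMEM45A, the basement membrane collagen chain COL4A6, GLMP, the haem-degrading enzyme HMOX1, ZNF740 and the dermatan sulfotransferase UST, with log2 fold changes from -0.72 (TMEM45A) to -0.18 (ZNF740).

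**Figure D1:**
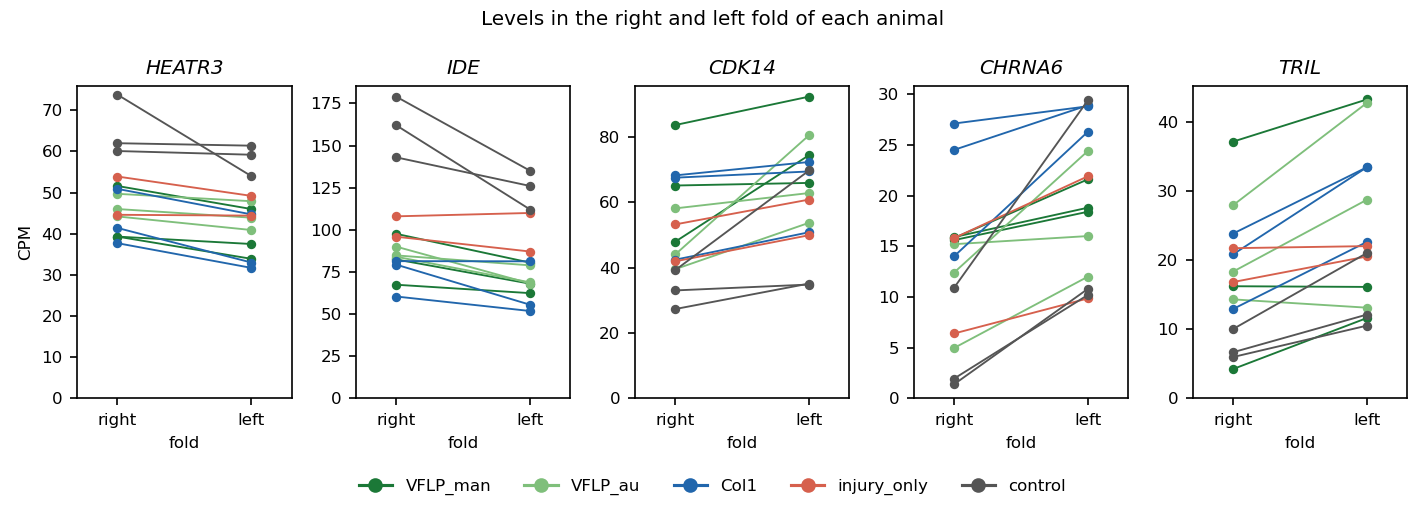
CPM in the right and left fold of each of 14 animals for 5 genes of small p, with 1 line per animal coloured by treatment and each vertical axis starting at 0. HEATR3 lines fall from right to left and CDK14 and CHRNA6 lines climb in all 14 animals, while the spread between animals exceeds the gap between sides.

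Over the 14 animals, genes that set left from right in the embryo gave no call. Of 28 listed left-right patterning genes found, 16 could be tested and none had an unadjusted p under 0.05; their median log2 fold change was 0.03, beside -0.01 for all genes tested. TBX1, a factor of pharyngeal muscle, had the smallest p of this list (0.0642 unadjusted), with medians of 33.6 CPM in right folds and 21.9 CPM in left folds. Its log2 difference was 1.32 in VFLP_man, 1.81 in VFLP_au, -1.30 in Col1, 0.13 in injury_only and 1.41 in control. The skeletal muscle list, described further on, had median log2 differences of 3.69, 2.39, -2.19, -0.12 and 1.52 in those treatments, and its part in the level of TBX1 was not tested. LEFTY2, an antagonist of the left-side signal NODAL, had a log2 fold change of -0.04 (SE 0.31) at a mean of 2.41 CPM. In the control animals, where 13.2% of all genes tested passed as higher in the right fold, 1 of 20 genes of this list passed: PKD2, a polycystin ion channel of cilia, had 31.1, 34.5 and 26.5 CPM in right folds and 24.3, 20.5 and 21.6 CPM in left folds (log2 fold change 0.52, SE 0.13, adjusted p = 0.0152 by edgeR). It is named because it was in this count, after its values were seen.

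The matrix and scar genes followed in studies of vocal fold repair did not pass either. None of the collagens COL1A1 and COL3A1, the matrix genes FN1, POSTN, ELN and LOX, nor of TGFB1, ACTA2, MMP1 and HAS2 had an unadjusted p under 0.05. Their log2 fold changes ran from -0.28 (POSTN, a matricellular protein; SE 0.25) to 0.23 (ELN, elastin; SE 0.28). The profibrotic cytokine TGFB1 was the most even between sides, with an SD of a fold around the mean of its animal of 0.245 log2 units, against 1.03 for the hyaluronan synthase HAS2 and 1.01 for the smooth muscle actin ACTA2.

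Within animals the sides were far from identical. The folds of an animal correlated at r = 0.869 to 0.974 in log2 CPM (median 0.957, 15 pairs), and the library most like a given one was the other fold of its animal for 18 of 30 libraries. Per gene, the median SD of a fold around the mean of its animal was 0.34 log2 units, and that of animal means around the mean of their treatment 0.332. Of all genes tested, 56.4% had the larger SD between folds. An animal mean averages its right and left fold, so its SD also holds spread between folds and the SDs are not like for like. A test of differences between animals of 1 treatment, with folds as the replicates, called 1831 of 15301 genes (12%) by edgeR. The genes whose folds differed most, at a mean of 5 CPM or more, were products of glands and airway secretory cells (ZG16B, BPIFB1, BPIFA1, CA6, CYP2A11, PIP and MUC7), muscle (the fast myosin MYH4 and the carbonic anhydrase CA3) and cornifying epithelium (CRNN). Their fold SDs ran from 2.81 (CA3) to 4.37 (ZG16B) log2 units, and their differences had no fixed side: ZG16B was higher on the right in 6 of 14 animals and BPIFB1 in 7.

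The size of the difference varied between animals. Between 6.25% and 24.4% of genes differed over 2-fold between the folds of the 11 injured animals, and between 21.5% and 25.2% in control animals. The injured animal at the top of that range, injury_only animal 83, had the widest gaps of the 14 animals in the ciliated list (-4.96 log2 units) and the secretory and gland list (-4.79). Secretory and gland genes took 0.395% of gene reads in the right fold and 19.4% in the left fold.

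**Figure D2:**
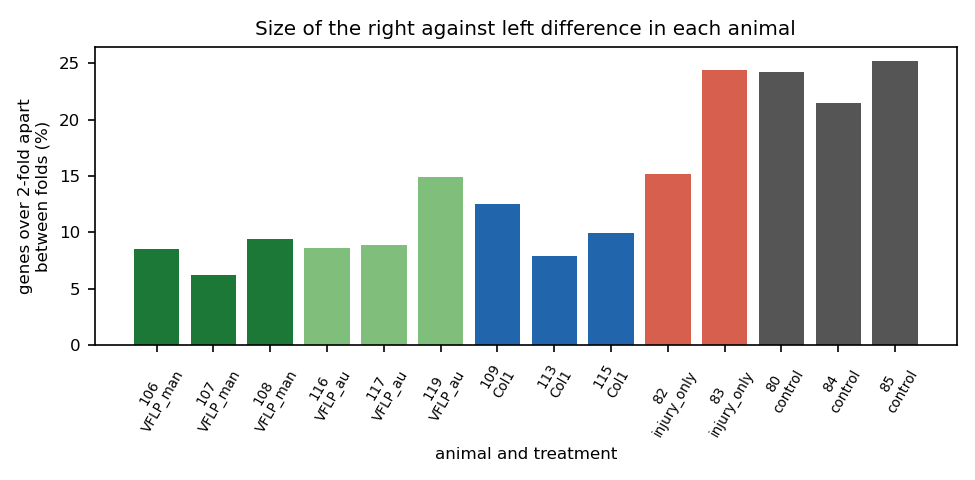
Percent of tested genes whose log2 CPM differs by more than 1 unit (2-fold) between the right and left fold, 1 bar per animal, coloured by treatment. The injured animals reach 24.4% (injury_only 83), and the control bars stand at 21.5% to 25.2%.

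In uninjured animals many genes passed between the sides. The fit had a separate side term for each treatment. By edgeR, 0 genes passed in VFLP_man, VFLP_au, Col1 or injury_only, where 573, 1679, 1589 and 666 genes had an unadjusted p under 0.05; limma voom also called 0, and DESeq2 called 226, 379, 70 and 1. In control, 5101 of 17452 genes passed, 2308 higher in the right fold (13.2%) and 2793 lower (16%). Higher in the right fold were 20 of 22 genes of oxidative phosphorylation, 15 of 18 of blood endothelium and 7 of 23 of lamina propria fibroblasts. Lower were 13 of 15 genes of basal epithelium, 8 of 22 of squamous differentiation, 15 of 23 of cell division, 5 of 23 of secretory cells and 5 of 12 of inflammatory signalling. The difference between treatments, tested as an interaction, passed for 1188 genes (6.81%). These animals are few, and the control calls use a spread pooled over all 14 animals: a fit of the 3 control animals alone called 0 of 14722 genes (6003 at an unadjusted p under 0.05, smallest adjusted p 0.0705). The control count was 2924 without animal 80 (925 higher, 1999 lower), 4211 without animal 84 (2463 higher, 1748 lower) and 2478 without animal 85 (749 higher, 1729 lower). The majority was thus lower in the right fold in the full fit and higher there without animal 84, as it was by limma voom with all animals (2884 higher, 2421 lower). The same pooled spread applied to a lone animal also gave calls: with animal 82 left out, injury_only rested on animal 83 and had 1344 genes past the threshold.

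The 6 genes of smallest interaction p were all lower in the right fold of control animals. TEX15, known for its role in germ cells, had 2.99, 0.573 and 2.2 CPM in right folds and 9.94, 3.6 and 10.8 CPM in left folds of control animals 80, 84 and 85 (log2 fold change -2.12, SE 0.16, adjusted p = 0.000177 by edgeR). All 3 right folds lay below all 3 left folds. SRC, a tyrosine kinase of cell adhesion and growth signalling, had 21.7, 5.62 and 13.9 CPM in right folds and 50.4, 19.8 and 37.1 CPM in left folds of control animals; the sides overlapped across animals, while each right fold was below its own left fold. The log2 difference of SRC was 0.02 in VFLP_man, -0.22 in VFLP_au, 0.12 in Col1, 0.02 in injury_only and -1.42 (SE 0.11) in control. CMIP, SPTLC1 (serine palmitoyltransferase), MALT1 (a protease of NF-kappaB signalling) and NUP107 (a nuclear pore subunit) had log2 fold changes of -1.21, -0.94, -1.43 and -0.88 in control. The interaction had an adjusted p of 0.00984 by edgeR for each of the 6 genes.

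Genes of the oxidative phosphorylation list were higher in the right fold of control animals in 20 of 22 tested, with none lower. Besides respiratory chain and ATP synthase genes, the list holds the citric acid cycle enzymes CS and IDH3A. Its median log2 fold change was 0.97, beside 0.01 for all genes. NDUFB5, a subunit of complex I, had 206, 323 and 229 CPM in right folds and 64.8, 209 and 134 CPM in left folds (log2 fold change 1.07, SE 0.18, adjusted p = 0.00198 by edgeR). SDHD of complex II and COX4I1 of complex IV rose by 0.96 and 1.15. The mean log2 CPM of this list was higher on the right by 1.58, 0.393 and 0.821 in control animals 80, 84 and 85. Without animal 80, 84 or 85 in turn, 12, 20 and 16 genes of the list passed. Of the genes higher in the right fold with the smallest p, SUCLG2 is a citric acid cycle enzyme (430, 661 and 454 CPM in right folds, against 177, 445 and 263 CPM in left folds), KLHDC2 a ubiquitin ligase adaptor and ANKRD28 a phosphatase subunit.

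Blood endothelial genes rose in 15 of 18 tested in control (median log2 fold change 1.10). VWF, the von Willebrand factor of endothelial cells, had 121, 306 and 167 CPM in right folds and 41.8, 249 and 71.9 CPM in left folds (log2 fold change 1.07, SE 0.22, adjusted p = 0.0054 by edgeR). The tight junction protein CLDN5 and the endothelial surface protein ECSCR rose by 1.19 and 1.21. Fibroblast genes rose in 7 of 23, with none lower, among them CD34 and PI16 (log2 fold change of PI16 1.60, SE 0.41). CD34, which marks stromal and endothelial cells, had 140, 262 and 212 CPM in right folds, against 54.7, 185 and 84.6 CPM in left. Without animal 80 the endothelial count was 2 and the fibroblast count 1, without animal 84 they were 14 and 4, and without animal 85 each was 1.

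Basal and squamous epithelial genes went the other way. Ciliated epithelial genes did not: 0 of 27 were called in control, at a median log2 fold change of 1.13. The mean level of the ciliated list was higher on the right in 1 of 3 control animals. Of 15 basal epithelial genes tested, 13 fell in the right fold of control animals (median log2 fold change -1.30). TP63, the factor that maintains basal cells, had 237, 28.4 and 87.2 CPM in right folds and 523, 165 and 357 CPM in left folds (log2 fold change -1.85, SE 0.24, adjusted p = 0.000857 by edgeR). ITGB4, the hemidesmosome integrin, had 45, 13.8 and 14.9 CPM in right folds and 102, 30.9 and 41.2 CPM in left folds, and the laminin chain LAMA3 fell by 1.27. The count of basal genes was 12 without animal 80, 12 without animal 84 and 10 without animal 85. In these bulk samples, fewer cells of a type and less RNA per cell cannot be told apart. Squamous differentiation genes fell in 8 of 22 (median -1.56), including the desmosomal cadherins DSC2 and DSG1 and the secreted cornification protein SBSN, with log2 fold changes of -2.07, -2.06 and -2.24. The mean level of this list was lower on the right in animals 84 and 85 (by -3.17 and -1.44) but not in animal 80 (0.0572), and its count was 10 without animal 80 and 2 without animal 84 or animal 85. With the level of the basal epithelial list as a covariate, the log2 fold changes of DSC2, DSG1 and SBSN turned to 0.78, 1.05 and 0.63, with no call.

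Cell division genes fell in 15 of 23 tested in control (median -1.47). The replication licensing gene MCM3 had 41.2, 11.2 and 12.7 CPM in right folds and 67, 39.9 and 39.1 CPM in left folds (log2 fold change -1.32, SE 0.24, adjusted p = 0.00325 by edgeR). The helicase subunit MCM2 and the sliding clamp PCNA fell by 1.47 and 0.88. Of the division genes 19 passed without animal 80, and 4 without animal 84 or animal 85. With the basal epithelial covariate the log2 fold changes of MCM3, MCM2 and PCNA turned to 0.28, 0.61 and 0.053, with no call. Of 23 secretory and gland genes 5 fell and 18 were not called (median -1.93), where 16% of all genes tested in control passed as lower. Among the 5 was AQP5, a water channel of gland acini, at 761, 58.4 and 312 CPM in right folds and 1410, 668 and 957 CPM in left folds. The secretoglobin SCGB3A2 and the airway factor FOXA1 fell by 2.19 and 1.58. The secretory count was 5 without animal 80, 1 without animal 84 and 4 without animal 85. Of 12 inflammatory genes 5 fell, among them the cytokines IL18 (log2 fold change -1.82, SE 0.23) and IL1A (-1.81, SE 0.49) and the nitric oxide synthase NOS2 (-2.33, SE 0.38), genes that epithelial cells also express. The inflammatory count was 3 without animal 80, 3 without animal 84 and 2 without animal 85. Under the same covariate the log2 fold changes of AQP5 and IL1A turned to 0.20 and 0.84, with no call.

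**Figure D3:**
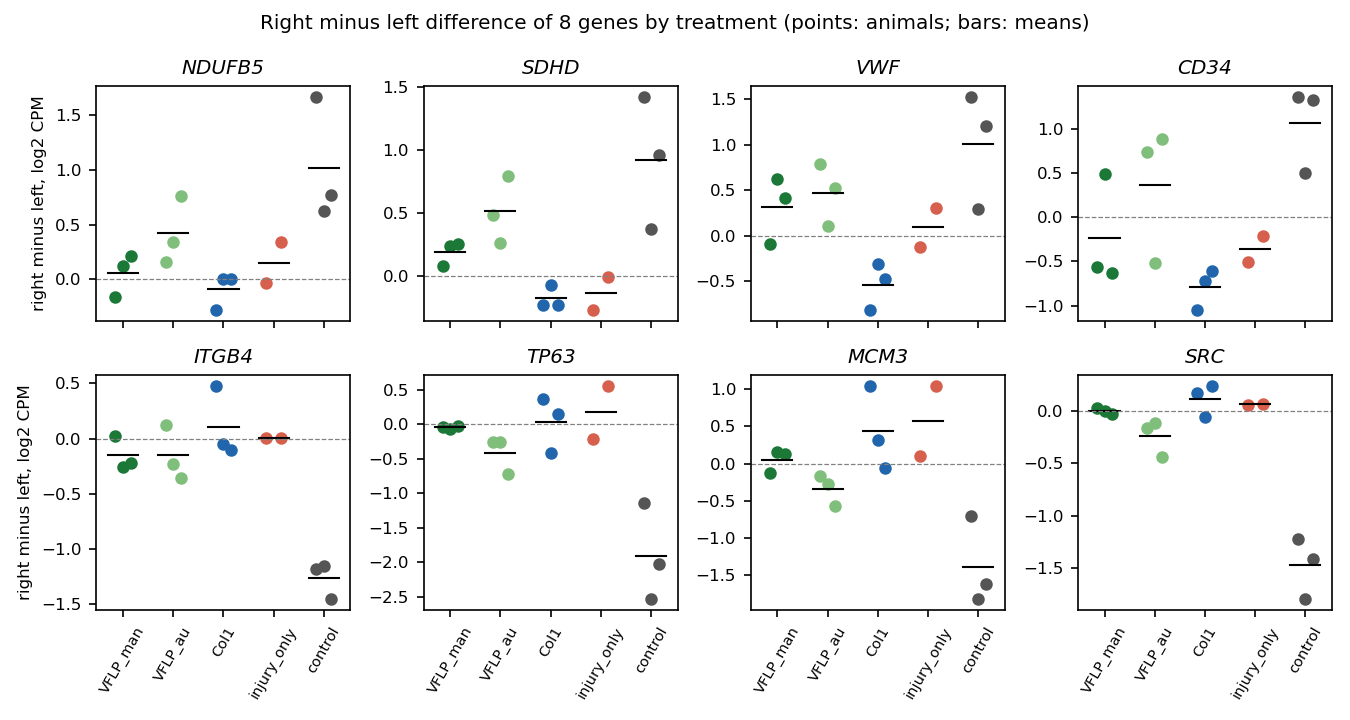
Right minus left log2 CPM of 8 genes, 1 point per animal in columns by treatment, with a black bar at the mean and a dashed line at 0. In control, all 3 points are above 0 for NDUFB5, SDHD, VWF and CD34 and below 0 for ITGB4, TP63, MCM3 and SRC, while the points of the other treatments lie on both sides of 0 or closer to it for most of these genes.

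Levels of basal epithelium and muscle genes differed between the sides of control animals, and muscle did so in other treatments too. The right minus left level of the basal epithelial list ranged from -0.481 to 0.423 in mean log2 CPM in the 11 injured animals, and was -0.808, -1.8 and -1.28 in control animals 80, 84 and 85. With the level of this list as a covariate, 0 genes passed in control (2676 at an unadjusted p under 0.05) and 0 in the interaction. Of the genes named in control, 25 kept the direction of their call without passing and 8 turned. Skeletal muscle genes took 8.08%, 9.57% and 7.73% of gene reads in right folds and 1.67%, 6.85% and 4.23% in left folds of the same animals. The mean muscle difference was 1.56 log2 units in control, beside 3.32 in VFLP_man, 2.16 in VFLP_au, 0.0875 in injury_only and -2.18 in Col1. In those other treatments edgeR called no gene. Once muscle level was a covariate, 3173 of 17452 genes passed in control, 1160 higher in the right fold and 2013 lower. Under that covariate 19 of 22 oxidative phosphorylation genes and 11 of 15 basal epithelial genes still passed. Of the other lists, 2 of 18 endothelial genes and 1 of 23 fibroblast genes did, to be read beside the counts over all genes. A covariate that itself differs between the sides shares the control difference, so these fits do not tell a change of makeup from one within cells.

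In the 11 injured animals alone edgeR called 0 of 15285 genes (595 at an unadjusted p under 0.05). Of 5059 genes called in control and tested in both, 2867 (56.7%) had the same sign in the injured animals, against 52% of all genes. The mean over these animals pools treatments whose list differences ran in opposite directions, as described next.

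Skeletal muscle was the list with the widest spread between sides after ciliated epithelium. None of its 26 genes passed over the 14 animals or in control, and its median log2 fold change was 1.16 over the 14 animals. The mean level was higher in the right fold of 3 of 3 VFLP_man animals (by 0.752, 4.42 and 4.8 log2 units) and 3 of 3 VFLP_au animals (1.18, 1.66 and 3.63), lower in 3 of 3 Col1 animals (-2.86, -0.152 and -3.54), divided in injury_only (-0.985 and 1.16), and higher in 3 of 3 control animals (2.62, 0.526 and 1.53). In VFLP_man, muscle genes took 0.099% to 0.902% of gene reads in right folds and 0.00936% to 0.0568% in left folds; in Col1, 0.0678% to 0.729% in right folds and 0.649% to 1.63% in left folds. MYH4, the fast myosin heavy chain, spanned 0.5 to 3890 CPM in right folds and 0 to 3420 CPM in left folds. In DESeq2, 225 of the 226 genes called in VFLP_man and 347 of the 379 called in VFLP_au were higher in the right fold.

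Other lists leaned to a side within a material group without a call by edgeR. Those given here are examples from the 32 lists, and with 3 animals a shared sign can arise by chance. In the 3 Col1 animals 109, 113 and 115, fibroblast genes were lower in the right fold by -0.95, -0.523 and -1.08 log2 units, and endothelial genes by -0.874, -0.67 and -0.547. Cell division genes were higher there in all 3, by 0.97, 0.462 and 0.262. DESeq2 called 54 genes lower and 16 higher in the right fold of Col1. In the 3 VFLP_au animals oxidative phosphorylation genes were higher in the right fold by 0.335, 0.342 and 0.817, and basal epithelial genes lower by -0.0362, -0.15 and -0.481. In VFLP_man the basal epithelial differences were -0.0206, -0.00883 and -0.121, the smallest set of any treatment.

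**Figure D4:**
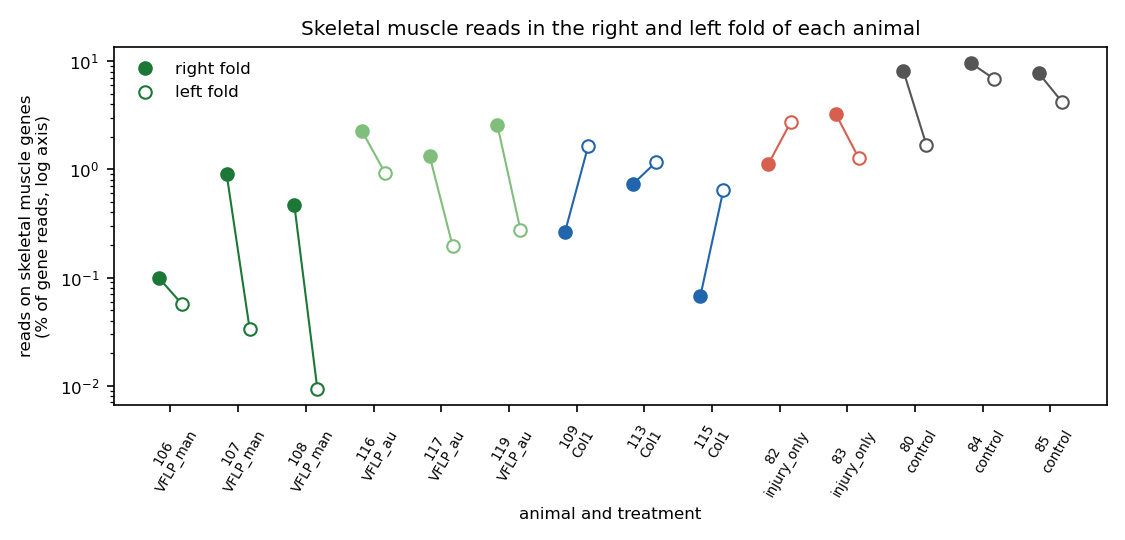
Reads on skeletal muscle genes as a percent of gene reads (log axis) in the right fold (filled) and left fold (open) of each animal, joined by a line and coloured by treatment. The right fold is higher in every VFLP_man, VFLP_au and control animal and lower in every Col1 animal, and control folds hold the highest shares, up to 9.57%.

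Across the 14 animals, the right minus left muscle level was set against that of 5 other lists, with permutation p values adjusted over the 5. Oxidative phosphorylation gave r = 0.59 (p = 0.0259, adjusted p = 0.123) and rho = 0.604 (p = 0.0251, adjusted p = 0.126). Without animals 109 and 115, which were farthest from the median muscle difference, r was 0.455 (permutation p = 0.136), so the relation rests in part on them; within batch D (9 animals) r was 0.761 (permutation p = 0.0182, adjusted p = 0.091), and batch C held too few animals. Fibroblast genes gave r = 0.537 (p = 0.0492, adjusted p = 0.123) and rho = 0.486 (p = 0.0792, adjusted p = 0.198), with r = 0.251 without those animals. Squamous, ciliated and secretory genes gave r of -0.122, -0.0668 and -0.0185 (p = 0.682, 0.819 and 0.95) and rho of -0.156, -0.0593 and -0.0901 (p = 0.595, 0.844 and 0.761). None of the 5 relations passed after adjustment.

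**Figure D5:**
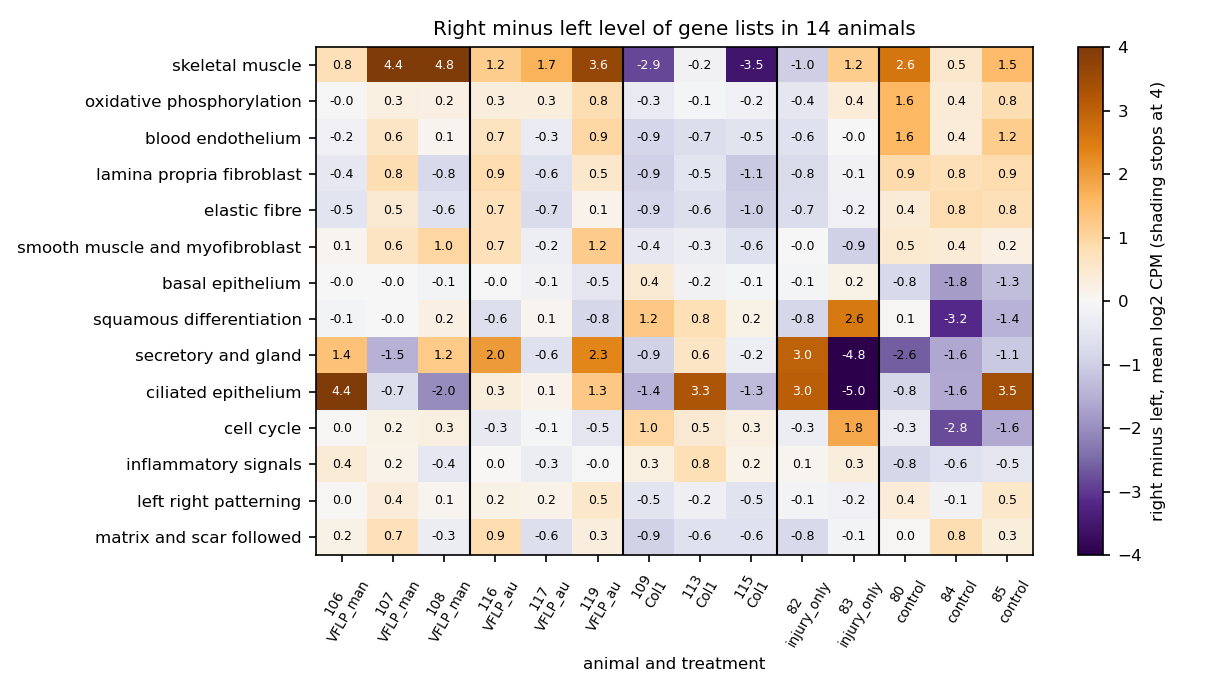
Right minus left difference of the mean log2 CPM of 14 gene lists (rows) in 14 animals (columns, grouped by treatment), with the value printed in each cell and orange for higher in the right fold. Muscle, ciliated, secretory and squamous rows hold the largest values of either sign, and in the control columns oxidative phosphorylation, endothelium and fibroblast rows are positive while basal epithelium and cell division rows are negative.

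Batches were 2, as named in the sample labels: C held the controls and the paired injury_only animals, and D the 9 animals given materials. By edgeR, 0 of 14899 genes passed in batch C and 0 of 15368 in batch D (624 and 728 at an unadjusted p under 0.05), where DESeq2 called 5 and 16. A test of whether the side difference differed between batches called 0 genes by edgeR (0%; 1592 at an unadjusted p under 0.05) and 30 by DESeq2. Treatment is nested in batch, so a difference between control and the material groups cannot be told apart from one between batches, except through the 2 paired injury_only animals, which shared batch C with the controls. The oxidative phosphorylation list differed by -0.449 and 0.362 in those 2 animals, and by 1.58, 0.393 and 0.821 in the control animals. The basal epithelial list differed by -0.0759 and 0.2 in injury_only, and by -0.808, -1.8 and -1.28 in control; no test of these list differences was made.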

How the data were processed

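RNA from 30 vocal fold libraries was analysed. The deposited values are raw read counts per gene, made by the authors with STAR 2.7.10b per the submitters' processing notes; genome build: not given in the sources used here. Per the labels' protocols, libraries used a stranded kit, 100 ng of RNA (integrity number above 7) and 15 amplification cycles. Counts of the second-read strand were used (31346 genes; 14615 have a LOC number); 4 entries without a gene were dropped (multimapping reads 11.1% to 34.5% of a library's reads).

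Tests used R 4.3.3 and edgeR 4.0.16 (quasi-likelihood, TMM, filterByExpr at a minimum count of 10), Benjamini and Hochberg adjustment over the genes tested and a threshold of 0.05. Animal was a block, since both folds come from 1 animal. Side was tested over 14 animals, by treatment, by batch and within each. SEs are the absolute log2 fold change over the square root of F. List levels are mean log2 CPM with a prior count of 2. Library measures and list relations used permutation tests (exact sign flips; 100000 resamples). DESeq2 1.42.0 and limma 3.58.1 were alternatives. The tests were checked on simulated data with 200 changed genes. Over 14 animals, 86% of changes of 1 log2 unit and 100% of changes of 2 were recovered. Within control the shares were 14% and 77%. False calls made up 3.12% and 5.21% of the calls of these tests. A count of 0 within a treatment therefore does not show that its sides were alike.

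Members, the 32 gene lists (524 of 601 genes found) and tests were chosen with earlier results of these data known. Named genes have a symbol and a mean of at least 1 CPM: the 10 of smallest p in each direction over 14 animals, the 6 of smallest p by treatment, the 3 in each direction within a treatment, up to 3 per list, the 10 of largest fold SD (5 CPM or more), and the patterning and scar lists. The 3 members of smallest p in control of the lists described there were added after their values were seen. The result of 1 gene that this rule takes is not reported here.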

Additional observations from a re-analysis of the deposited data

Results flagged for a closer look

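The right against left difference differed between treatments for 1188 genes in edgeR's interaction test. The 6 of smallest p had these log2 fold changes in control: TEX15 -2.12, SRC -1.42, CMIP -1.21, SPTLC1 -0.94, MALT1 -1.43 and NUP107 -0.88. The level of basal epithelial genes moved with them, as given above.

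Among the 6 libraries of each treatment, 6 of 35 sets of values for library measures had a sample far from the others; chance alone gives about 1 in 20, and folds of 1 animal are related. Unmapped reads stood apart in the right fold of Col1 animal 113 (4.98%), and in the left folds of VFLP_au animal 116 (5.85%), VFLP_man animal 108 (4.71%) and injury_only animal 83 (5.41%). The left fold of injury_only animal 83 also had the highest share of reads in its top 10 genes (27.2%), beside 19.4% of its gene reads on the secretory and gland list. Reads without a feature stood apart in the right fold of Col1 animal 109 (9.68%).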

How the results depend on the processing

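Over 14 animals, the count of 0 genes was also 0 with DESeq2 size factors, without a filter, with unstranded counts, by limma voom, with animal 79 included, with either covariate, and without each animal in turn (0 to 0); DESeq2 gave 14. In the paired analysis animal is the block, and without the block the count was likewise 0 (635 genes at an unadjusted p under 0.05). DESeq2 gave 1 gene for injury_only, 70 for Col1, 226 for VFLP_man, 379 for VFLP_au, 5 in batch C, 16 in batch D, 30 between batches and 5547 between animals of a treatment.

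The interaction with treatment gave 4287 genes by DESeq2, 480 without a filter (more genes tested), 2389 with animal 79, 107 with the muscle covariate, 1869 by limma voom and 0 with the basal epithelium covariate. The control count ranged from 2478 to 4211 without 1 animal, and was 3173 with the muscle covariate, 0 with the basal epithelium covariate and 0 for the 3 control animals alone, where few degrees of freedom remain. Leaving out 1 injury_only animal gave 0 to 1344 genes. With the basal epithelium covariate, none of the control calls passed and the log2 fold change in control turned to 0.28 for MCM3, 0.61 for MCM2, 0.053 for PCNA, 0.63 for SBSN, 0.78 for DSC2, 1.05 for DSG1, 0.20 for AQP5 and 0.84 for IL1A. These were the 8 genes named in control that turned, while 25 others kept the direction of their call without passing. The muscle, epithelium, limma and single-treatment fits within treatments were chosen after seeing the data. Where a count moved, the cause was not tested unless stated. Library measures and list relations kept their side of the threshold. List medians, which had no test, moved by less than the SD of the list difference over animals. Depth limits genes such as SFTPB, at 0 to 10.4 CPM.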

Other observations

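Of the thyroid and parathyroid genes listed as markers of glands beside the larynx, thyroglobulin (TG) stood at 0 to 1.09 CPM and the parathyroid factor GCM2 at 0 in all 30 libraries. Other genes of the list were well expressed: the deiodinase IYD had a median of 61.3 CPM, the oxidase DUOX2 34.7 CPM, and the receptor TSHR reached 111 CPM. IYD was not so in every animal, with 11 and 5 reads in the right and left fold of injury_only animal 82. In VFLP_au animal 116 it had 2 and 11 reads. The mean level of the list was lower in the right fold of 13 of 14 animals, with a median difference of -0.226 log2 units (range -1.14 to 0.369). Of its 4 genes tested, 0 passed and 2 had an unadjusted p under 0.05.

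Lymphatic endothelial genes were higher in the right fold of 12 of 14 animals, by a median of 0.427 log2 units. Of 8 genes tested, 0 passed by edgeR, 3 had an unadjusted p under 0.05 with the higher level in the right fold, and 1 (PDPN, which basal epithelium also expresses) was lower there. The lymphatic regulator PROX1 had a log2 fold change of 0.53 (SE 0.21), with the higher level on the right in 11 of 14 animals.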
